A study of Mus musculus with 44 samples.

Results

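The transporters described here move drugs, hormones and waste products across the kidney tubule wall, and were followed in mouse kidney with and without the clock gene Bmal1. They were taken by name, with earlier results of these data known: Abcb1a, Abcb1b, Abcc2, Abcc3, Abcc4, Abcg2, Slc47a1 and Slco4c1. These are 8 of the 24733 genes with any value in the deposited table of transcript abundances, and all 8 are among the 12874 genes tested. Abcc3 was tested only because of its level in the knockout libraries, since its WT mean was 0.843 TPM, under the minimum mean of 1 TPM over all libraries. TPM values state the relative abundance of a transcript, corrected for its length and scaled to a fixed total per library. The study measured polyadenylated RNA in 24 kidney libraries. Wild-type (WT) and knockout (KO) mice of the 129SV strain, 8 to 12 weeks after birth and fed only at night, were sampled at 6 zeitgeber times (ZT, hours after lights on): ZT0, ZT4, ZT8, ZT12, ZT16 and ZT20. The column names of the table give the KO as Bmal1 knockout and the WT as SV129, and neither the labels nor the table states how the allele was made or in which cells it is deleted. Each genotype and time had 2 libraries, A and B. The labels do not state that these came from separate animals, so the p-values measure only the spread between these libraries. The 20 chromatin contact libraries of the series are not used here, since their baits lie at none of these genes.

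The proximal tubule secretes drugs in steps: carriers on the blood side take them up, and pumps or exchangers on the brush border pass them to the urine. ATP-binding cassette (ABC) transporters drive this export with ATP, whereas the solute carriers (Slc and Slco genes) use ion gradients or exchange. Bmal1, the gene Arntl, pairs with Clock and binds E-box sequences to drive daily rhythms, in part through the output factors Dbp, Tef and Hlf.

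On the brush border, Abcb1a and Abcb1b encode the mouse P-glycoproteins, broad pumps for bulky hydrophobic drugs. Abcg2 (breast cancer resistance protein) exports urate and sulphated conjugates, Abcc2 (multidrug resistance-associated protein 2) exports glutathione and glucuronide conjugates, and Abcc4 exports organic anions and cyclic nucleotides. Slc47a1 is the proton exchanger MATE1, the exit of organic cations such as metformin. On the blood side, Abcc3 is a pump for glucuronides, and Slco4c1 carries digoxin, thyroid hormone and uraemic toxins. In GRCm38, Abcb1a (chr5:8660077-8748575) and Abcb1b (chr5:8798147-8866315) lie next to each other on the plus strand. Abcc2 (chr19:43782192-43840740) and Abcg2 (chr6:58584523-58695676) are also on the plus strand. Abcc3 (chr11:94343295-94392997), Abcc4 (chr14:118482692-118706219), Slc47a1 (chr11:61343401-61378345) and Slco4c1 (chr1:96816270-96872171) are on the minus strand.

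The RefSeq promoter table (GRCm38.p6) held 9 windows for 6 of the 8 genes, and the 250 bases before each start were searched on both strands for 4 motifs. These were the clock E-box CACGTG, the D-box of Dbp, Tef and Hlf (TTATGTAA or TTACGTAA), the AGGTCA half-site of the REV-ERB and ROR receptors, and TGACNNNGC, the core of the antioxidant response element. Of 32851 windows of this length, 6.02% held the E-box, 0.931% the D-box, 14.0% the half-site and 10.2% the antioxidant core. The windows of 3 genes whose transcripts rose in the KO and 1 whose transcript fell are shown, with matches in capitals and each read 5′ to 3′ on the strand of the gene. They are Abcc4 (chr14:118706220-118706469, minus), Abcb1b (chr5:8797897-8798146, plus), Slco4c1 (chr1:96872172-96872421, minus) and Abcc2 (chr19:43782058-43782307, plus).
Abcc4: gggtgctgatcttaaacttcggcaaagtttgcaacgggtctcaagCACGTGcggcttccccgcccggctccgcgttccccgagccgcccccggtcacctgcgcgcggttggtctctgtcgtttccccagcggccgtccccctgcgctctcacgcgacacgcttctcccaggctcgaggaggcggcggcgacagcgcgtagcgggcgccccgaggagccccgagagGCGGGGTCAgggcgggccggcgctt
Abcb1b: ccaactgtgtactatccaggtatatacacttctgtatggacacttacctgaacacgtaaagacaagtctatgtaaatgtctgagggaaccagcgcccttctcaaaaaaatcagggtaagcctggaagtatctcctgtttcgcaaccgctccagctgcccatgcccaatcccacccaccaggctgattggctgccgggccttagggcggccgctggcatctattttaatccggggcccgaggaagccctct
Slco4c1: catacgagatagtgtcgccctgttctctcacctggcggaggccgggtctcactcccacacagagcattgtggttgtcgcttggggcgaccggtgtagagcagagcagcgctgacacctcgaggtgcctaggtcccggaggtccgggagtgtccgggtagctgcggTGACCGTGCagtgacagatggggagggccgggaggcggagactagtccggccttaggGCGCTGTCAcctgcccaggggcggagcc
Abcc2: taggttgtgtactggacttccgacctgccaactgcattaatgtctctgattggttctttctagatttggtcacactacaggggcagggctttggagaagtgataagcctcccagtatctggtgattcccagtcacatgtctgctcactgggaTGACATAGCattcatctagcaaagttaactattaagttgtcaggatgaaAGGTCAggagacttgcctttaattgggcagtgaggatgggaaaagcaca
The Abcc4 window shown held the only E-box among the 9 windows, 205 bases before the start, and an antioxidant core 25 bases before it, read on the other strand. The Abcb1b window held none of the 4 motifs. The Slco4c1 window held antioxidant cores 85 and 28 bases before the start. The Abcc2 window held a half-site at 49 bases and an antioxidant core at 98 bases. Its RefSeq start (43782308) lies inside the gene bounds given above, which begin at 43782192. Both matches lie within those bounds and not before them. A second Abcc4 window (chr14:118676932-118677181, minus), at a start inside the gene, held an antioxidant core at 23 bases and no E-box. Of the 3 Abcg2 windows, 1 held half-sites at 212 and 121 bases and another held 1 at 197 bases. The third Abcg2 window and the Abcb1a window held none. The Abcb1a window (chr5:8566841-8567090, plus) lies apart from the gene bounds given above, upstream of them. The 250 bases before the gene start at 8660077 were therefore not searched. A match describes the letters only, and no binding was measured here.

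Several facts on the libraries touch the results. Arntl transcripts remained in the KO, at 4.19 to 6.28 TPM in its 12 libraries against 0.295 to 12.9 TPM in WT, so their level alone did not separate the genotypes (log2 difference 1.0, SE 0.44, adjusted p = 0.0570, limma). A 24 h cosine fit called a daily rhythm of Arntl in WT and not in KO. The test of the rhythm difference also called Arntl, as it did 0.629% of all genes (limma). The library labelled KO ZT4 replicate A held clock and kidney transcripts at WT levels: Nr1d1 was at 23.9 TPM there and at 1.24 to 3.46 TPM in the other 11 KO libraries. The library labelled KO ZT12 replicate A held the Y-linked transcript Ddx3y at 0.0990 TPM, against 11.7 to 17.5 TPM in the other 23. Another Y-linked transcript, Kdm5d, was less reduced there, at 2.27 TPM against 3.74 to 4.63 TPM in WT. The labels give no sex. Of 5 genes known to be higher in male mouse kidney, 5 fell in the KO, where 10% of all genes fell. Of 3 known to be higher in female kidney, 3 rose, where 50.9% of all genes rose. Over these genes the adjusted p ran from 0.00353 down to 7.71e-07 (limma). Both lists were chosen with earlier results of these data known, so the counts describe these libraries and give no independent support. The summed male-high level was 31310 to 41390 TPM in WT and 10480 to 36230 TPM in KO. Most of it was Kap, with a mean of 36500 TPM in WT and 21880 TPM in KO. The summed female-high level was 5.56 to 41.0 TPM in WT and 21.4 to 807.6 TPM in KO. The part of these male-high and female-high genes in the transporter differences was not tested. The plot of these sums shows both libraries against their groups, and values without them are given beside the results.

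**Figure D1:**
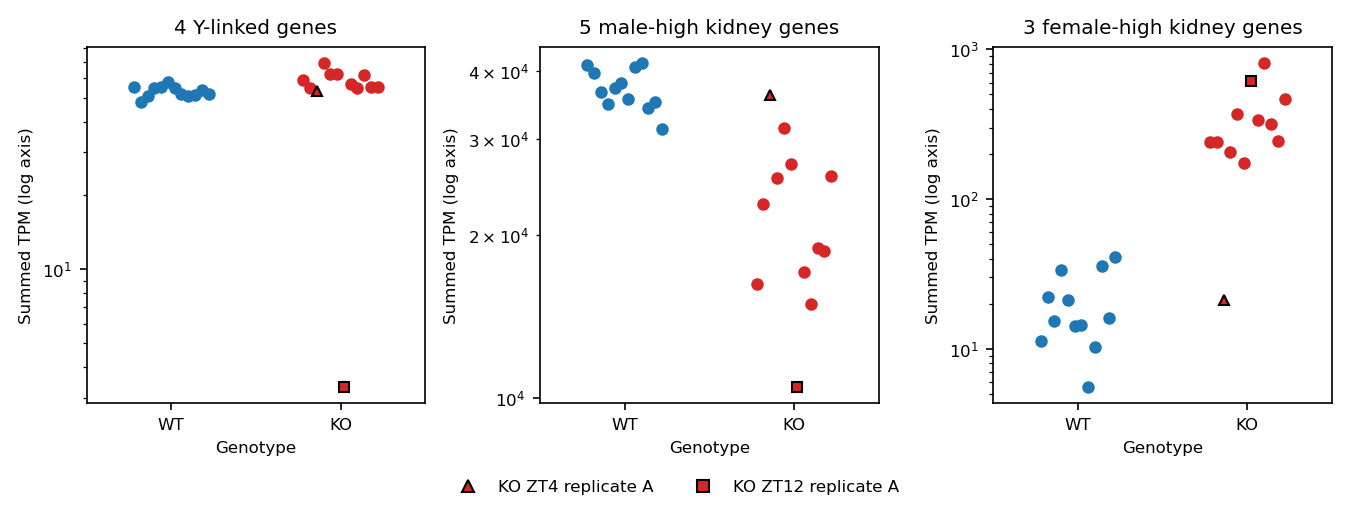
Summed TPM (log axes) of 4 Y-linked genes, 5 male-high and 3 female-high kidney genes in each of 12 WT (blue) and 12 KO (red) libraries. Most of the male-high sum is Kap. KO ZT12 replicate A (square) is alone at 3.31 TPM for the Y-linked genes, and KO ZT4 replicate A (triangle) lies within the WT range of all 3 sums.

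All 8 transcripts were detected in every library. In WT the median level per length ran in the order Slc47a1 (247.2 TPM), Abcg2 (190.8), Abcc2 (57.3), Abcc4 (7.51), Slco4c1 (5.32), Abcb1b (1.23), Abcb1a (1.16) and Abcc3 (0.831). The WT libraries of Slc47a1, Abcg2, Abcc2 and Abcc4 did not overlap between neighbours in this order, and those of Slco4c1 lay apart from Abcb1b. Abcc4 and Slco4c1 touched (lowest 6.07 TPM against highest 6.08 TPM), and the levels of Abcb1b, Abcb1a and Abcc3 overlapped. In the KO the ranges of Slc47a1 (183.7 to 260.3 TPM) and Abcg2 (175.6 to 235.7 TPM) overlapped.

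**Figure D2:**
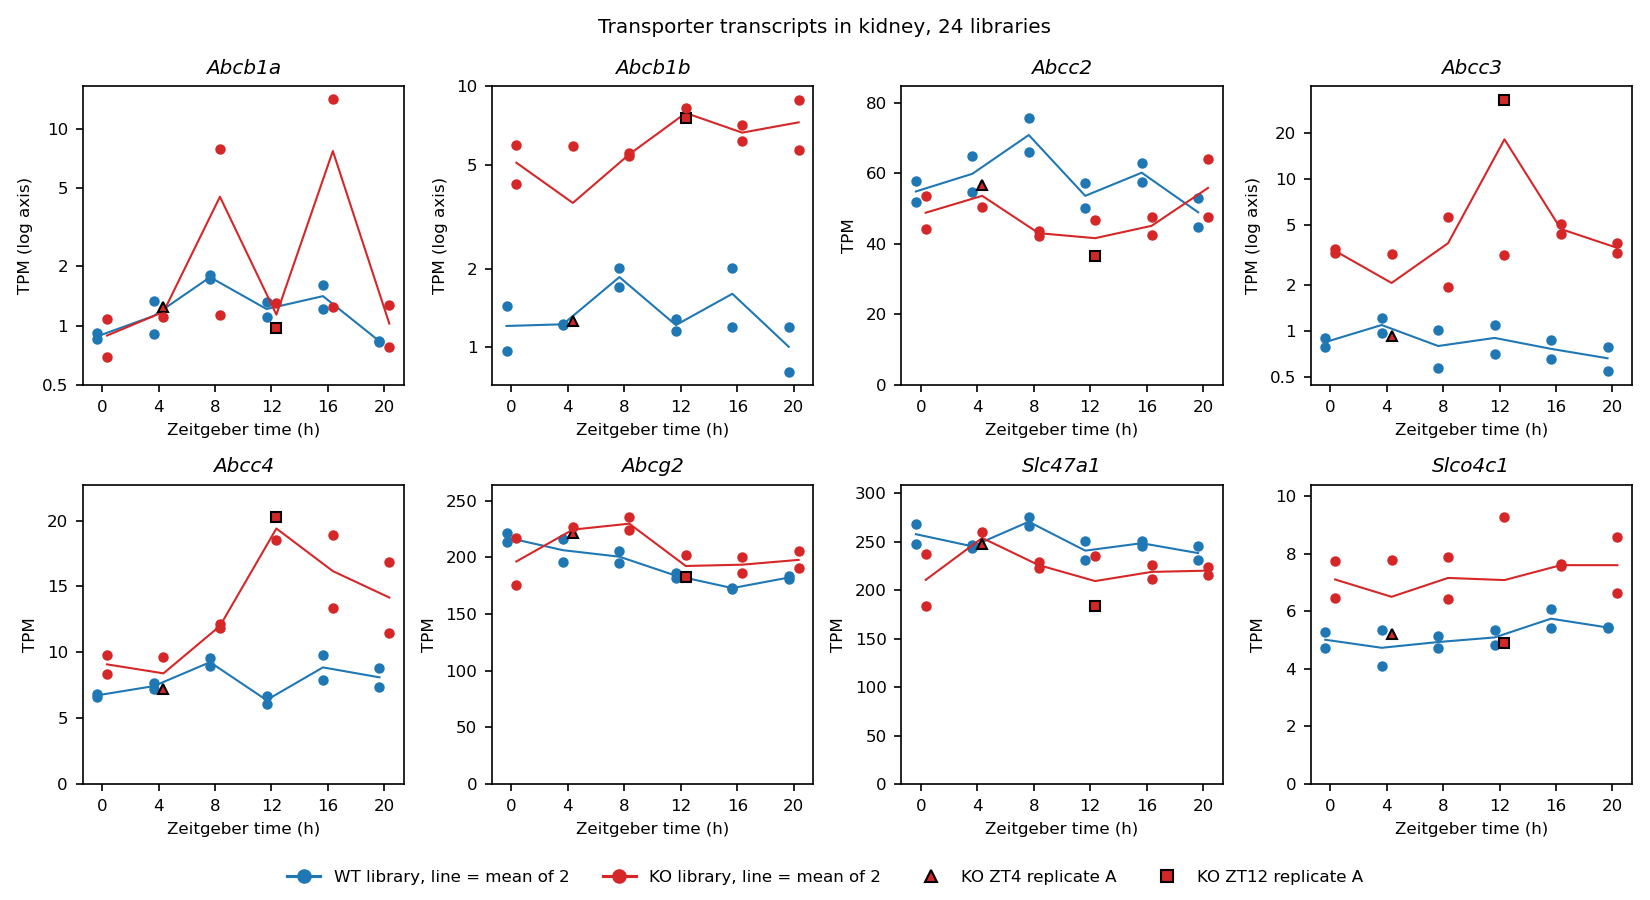
TPM of the 8 transporters in each library against zeitgeber time (hours), WT in blue and KO in red, with lines through the mean of 2 libraries; Abcb1a, Abcb1b and Abcc3 have log axes. Abcb1b and Abcc3 lie above the WT libraries in 11 of 12 KO libraries, and the triangle (KO ZT4 replicate A) is the exception in both.

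The genotypes were compared with limma on log2(TPM + 0.1), with time in the model and p-values adjusted over all 12874 genes. Of the 8 transporters 4 rose in the KO (where 50.9% of all genes tested rose) and 2 fell (where 10% fell). The 4 include Abcc3, which was tested only because of its KO level. In all, 6 of 8 changed, against 60.9% of all genes. The median log2 difference over the 8 was 0.44, against 0.15 over all genes. It lies between the values of Abcb1a (0.42), which did not pass, and Slco4c1 (0.45). After median-of-ratios scaling the median was 0.29 over the 8 and -0.0019 over all genes. The counts were again 4 higher and 2 lower, against 21.5% and 22.6% of all genes. Without KO ZT4 replicate A and KO ZT12 replicate A they were also 4 and 2, against 50.9% and 10.3%. Differences are on the log2(TPM + 0.1) scale, which understates those of low transcripts. In whole kidney, fewer cells of a type and less RNA per cell cannot be told apart.

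**Figure D3:**
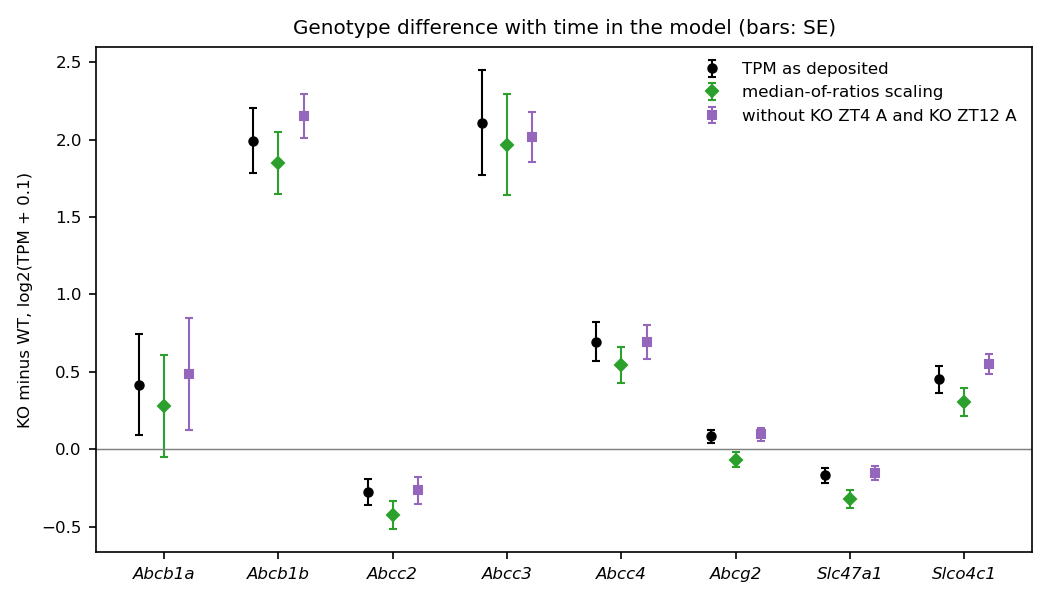
KO minus WT difference on the log2(TPM + 0.1) scale for each transporter, bars showing the SE, from TPM as deposited (black), after median-of-ratios scaling (green) and without 2 KO libraries (purple). Abcb1b and Abcc3 stand near 2 in all 3 fits, Abcc2 and Slc47a1 lie below 0, and Abcg2 changes sign with the scaling.

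Abcb1b showed a 4.42-fold higher mean in the KO. It lay at 0.809 TPM (lowest), 1.23 TPM (median) and 2.02 TPM (highest) in WT, and at 1.27, 5.92 and 8.85 TPM in KO. The KO value that fell within the WT range was that of KO ZT4 replicate A, and the other 11 lay at 4.21 TPM or more. The log2 difference was 1.99 (SE 0.21, adjusted p = 6.96e-07, limma), and 2.15 (SE 0.14) without both libraries that stand apart. With all 12 KO libraries no transporter separated the genotypes completely, as 1.42% of all genes did with KO higher. Without KO ZT4 replicate A, Abcb1b and Abcc3 did so, as did 8.34% of genes.

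Abcb1a, its close relative, showed no detectable difference. Abcb1a lay at 0.828, 1.16 and 1.80 TPM (lowest, median, highest) in WT and at 0.697, 1.19 and 14.2 TPM in KO. The log2 difference was 0.42 (SE 0.33, adjusted p = 0.276, limma). The medians were nearly equal, and 2 KO libraries stood far above the rest, KO ZT8 replicate A at 7.89 TPM and KO ZT16 replicate B at 14.2 TPM. Almost all of that excess was assigned to Abcb1a-204, an annotated non-coding transcript of 129 bases (chr5:8719849-8723174), which held 6.75 and 13.1 TPM there and was listed at 0 in the other 22 libraries. Of its 99 words of 31 bases, 64 also occur in the coding transcript Abcb1a-201 and 70 in the retained-intron transcript Abcb1a-202. The coding transcript had a mean of 0.863 TPM ± 0.227 (SD, n = 12) in WT and 0.826 TPM ± 0.204 in KO.

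**Figure D4:**
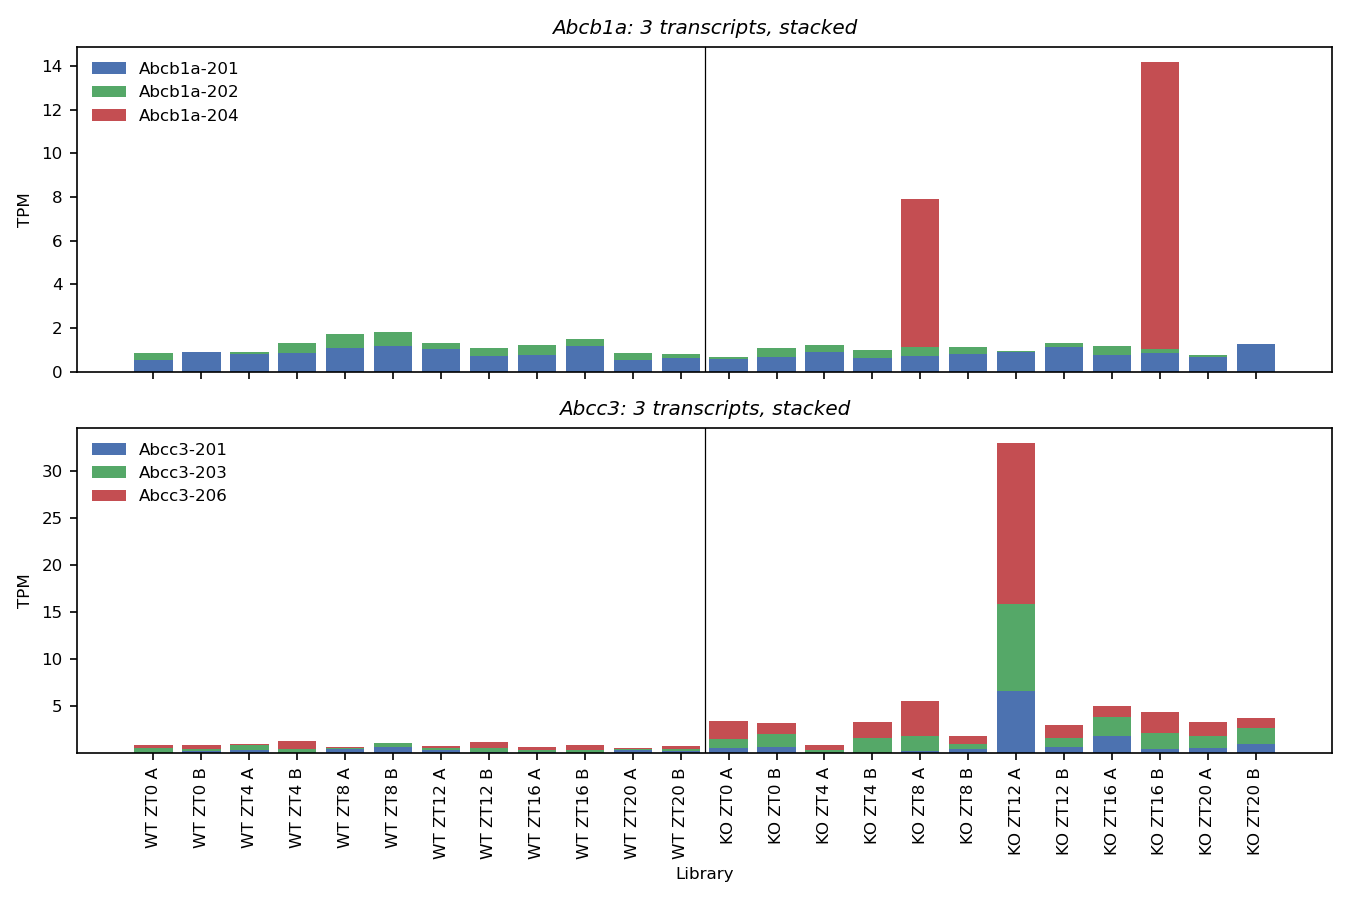
Stacked TPM of 3 transcripts each of Abcb1a (top) and Abcc3 (bottom) in the 24 libraries, WT left of the line and KO right. The tall Abcb1a bars in KO ZT8 A and KO ZT16 B are nearly all Abcb1a-204, whereas in KO ZT12 A all 3 Abcc3 transcripts are high. The division of reads among the 3 Abcc3 transcripts is uncertain.

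The Abcb1a and Abcb1b transcripts share 1064 words of 31 bases, 21.4% of Abcb1a-201 and 24.9% of Abcb1b-201, so the division of reads between them is uncertain. Summed as 1 gene, the pair lay at 1.64, 2.38 and 3.73 TPM in WT and at 2.51, 7.70 and 20.3 TPM in KO. The sum rose by 1.61 log2 units (SE 0.19, adjusted p = 2.33e-06, limma), and 11 of 12 KO libraries lay above the highest WT library.

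Abcc3, the blood-side pump, rose in the KO. It was tested only because of its KO level (WT mean 0.843 TPM), so its p-values describe a gene that the filter kept for that level. Its WT libraries lay at 0.541, 0.831 and 1.22 TPM and its KO libraries at 0.926, 3.37 and 33.4 TPM (lowest, median, highest). The lowest KO value was again KO ZT4 replicate A and the highest was KO ZT12 replicate A, while the other 10 lay between 1.96 and 5.6 TPM. The log2 difference was 2.11 (SE 0.34, adjusted p = 4.5e-05, limma), and 2.02 (SE 0.16, adjusted p = 1.55e-08) without both libraries. The mean was 7.06 times that of WT with all libraries and 4.40 times without both. In KO ZT12 replicate A the coding transcripts Abcc3-206 and Abcc3-201 and the short Abcc3-203 were at 17.1, 6.51 and 9.32 TPM, each the highest of the 24 libraries. Abcc3-201 holds 99.3% of the words of Abcc3-206. Each of these 2 holds 84.9% of the words of Abcc3-203, so the division among the 3 is uncertain.

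Abcc4 rose in the KO. It lay at 6.07, 7.51 and 9.82 TPM in WT and at 7.18, 12.0 and 20.3 TPM in KO (lowest, median, highest), and 8 of the 12 KO libraries lay above every WT library. This was a log2 difference of 0.70 (SE 0.12, adjusted p = 1.11e-04, limma). Both coding transcripts had a higher mean in the KO: Abcc4-201 was at 5.13 TPM ± 1.29 in WT and 8.00 TPM ± 2.62 in KO, and Abcc4-202 at 2.67 TPM ± 0.993 and 5.21 TPM ± 2.11 (SD, n = 12). They share 99.2% of the words of Abcc4-202, so their division is uncertain.

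Slco4c1, the blood-side carrier, also rose. It lay at 4.11, 5.32 and 6.08 TPM in WT and at 4.89, 7.60 and 9.27 TPM in KO (lowest, median, highest). In all, 10 of 12 KO libraries lay above every WT library, and the 2 that did not were KO ZT4 replicate A (5.21 TPM) and KO ZT12 replicate A (4.89 TPM). The log2 difference was 0.45 (SE 0.09, adjusted p = 2.09e-04, limma), and 0.55 (SE 0.07) without these libraries. Without both, Slco4c1, Abcb1b and Abcc3 had no overlap between genotypes, as did 8.61% of all genes with KO higher.

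Abcc2 and Slc47a1, at the brush border, fell by small amounts. Abcc2 lay at 44.8, 57.3 and 75.6 TPM in WT and at 36.5, 47.2 and 63.9 TPM in KO. The ranges overlapped widely, and 5 KO libraries lay below every WT library. The log2 difference was -0.28 (SE 0.08, adjusted p = 0.00781, limma). The full-length coding transcript Abcc2-201 made up 74.3% of the gene's TPM in WT and 74.2% in KO, and the retained-intron transcript Abcc2-204 made up 18.0% and 15.6%. A shorter coding transcript, Abcc2-202, was listed at 0 in WT and above 0 in 4 libraries, all KO, at up to 6.37 TPM.

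Slc47a1 lay at 230.9, 247.2 and 275.5 TPM in WT and at 183.7, 225.3 and 260.3 TPM in KO. Of the 12 KO libraries, 8 lay below every WT library. On the log2 scale the difference was -0.17 (SE 0.05, adjusted p = 0.00520, limma). Its main coding transcript Slc47a1-201 had a mean of 184.8 TPM ± 13.5 in WT and 150.9 TPM ± 23.3 in KO (SD, n = 12). The non-coding Slc47a1-203 was at 38.8 TPM ± 3.62 in WT and 43.2 TPM ± 6.99 in KO. Slc47a1-202, annotated as a target of nonsense-mediated decay, was at 25.9 TPM ± 2.51 and 28.5 TPM ± 4.54. Slc47a1-201 made up 73.9% of the gene in WT and 67.6% in KO, and this split was not tested.

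Abcg2 was close in both genotypes. It lay at 172.6, 190.8 and 221.6 TPM in WT and at 175.6, 204.0 and 235.7 TPM in KO, and the groups overlapped over most of their range. KO exceeded WT by a log2 difference of 0.08 (SE 0.04, adjusted p = 0.0859, limma), and it was -0.07 (adjusted p = 0.288) after median-of-ratios scaling. Abcg2-202, the main coding transcript, held 76.0% of the gene's TPM in WT and 75.6% in KO, and Abcg2-208, annotated as a target of nonsense-mediated decay, held 20% and 20.3%.

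At single times the 8 transporters gave 11 calls in 48 comparisons of 2 libraries with 2 (limma, contrasts at each time). The number called was 1 of 8 at ZT0, 2 at ZT8, 3 at ZT12, 3 at ZT16 and 2 at ZT20, against 13.4%, 14.6%, 38.2%, 21.5% and 3.72% of all genes. At ZT4 none was called and 0% of all genes were, while 1 of 8 (Abcb1b) and 12.7% of all genes had an unadjusted p under 0.05. Abcb1b accounted for 5 of the 11 calls. Its log2 difference was 1.99 (adjusted p = 0.0186) at ZT0, 1.51 (0.0465) at ZT8, 2.60 (0.00139) at ZT12, 2.02 (0.0103) at ZT16 and 2.72 (0.0148) at ZT20. At ZT4 its KO libraries were at 1.27 and 5.88 TPM and its WT libraries at 1.24 and 1.22 TPM.

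Abcc4 accounted for 3 calls, all from ZT12 on. At ZT12 its KO libraries were at 20.3 and 18.5 TPM and its WT libraries at 6.68 and 6.07 TPM, a log2 difference of 1.59 (SE 0.19, adjusted p = 1.01e-04). At ZT16 the KO held 18.9 and 13.4 TPM against 7.89 and 9.82 TPM (0.85, adjusted p = 0.00774), and at ZT20 11.5 and 16.8 TPM against 7.37 and 8.84 TPM (0.78, adjusted p = 0.0388). At ZT0, ZT4 and ZT8 its differences were 0.42, 0.16 and 0.37, and none passed.

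Abcc3, tested only because of its KO level, was called at ZT12 and ZT16. At ZT12 the KO held 33.4 and 3.15 TPM and WT 0.704 and 1.10 TPM (log2 difference 3.41, SE 0.81, adjusted p = 0.00620). Without KO ZT12 replicate A, which leaves 1 KO library assumed to vary like the other groups, it was 1.73 (adjusted p = 0.0649). At ZT16 the KO held 5.04 and 4.34 TPM and WT 0.651 and 0.874 TPM (2.48, adjusted p = 0.0433). Abcc2 was called at ZT8, with 43.8 and 42.3 TPM in KO against 66.0 and 75.6 TPM in WT (-0.71, SE 0.16, adjusted p = 0.0108). Its difference at ZT20 had the opposite sign (0.18, adjusted p = 0.558), with 47.7 and 63.9 TPM in KO against 53.0 and 44.8 TPM in WT.

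**Figure D5:**
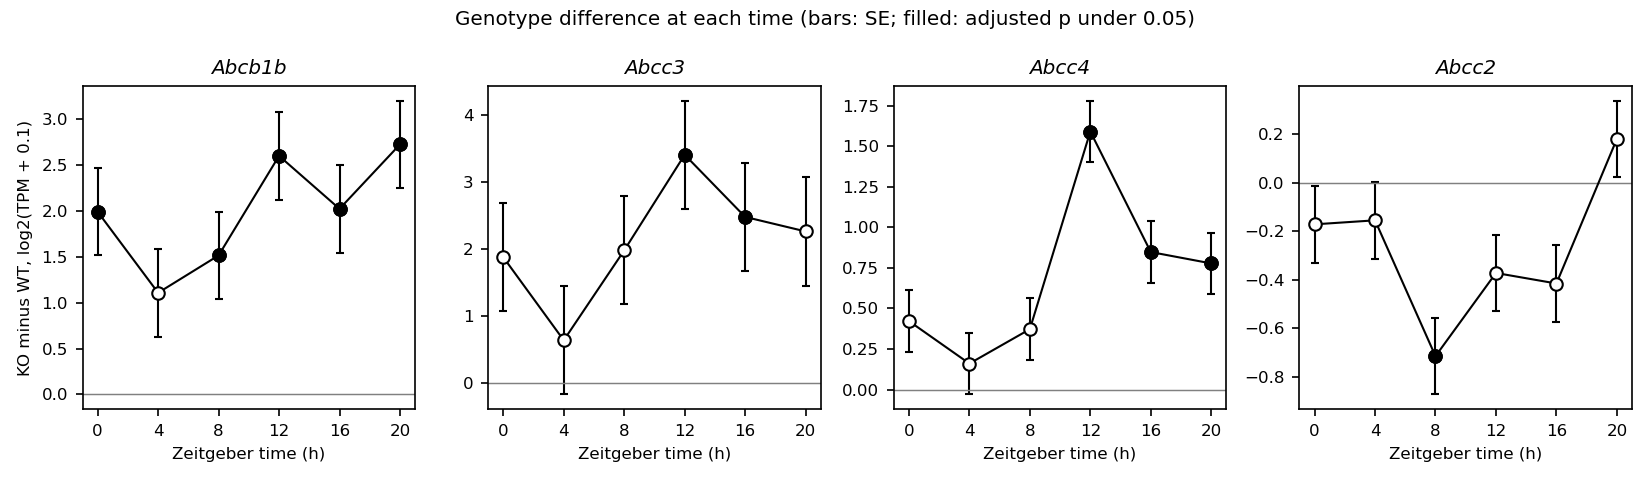
KO minus WT difference at each zeitgeber time (hours) on the log2(TPM + 0.1) scale for Abcb1b, Abcc3, Abcc4 and Abcc2, bars showing the SE and filled points an adjusted p under 0.05. Abcc4 stands highest at ZT12 (1.59), Abcc2 lowest at ZT8 (-0.71), and no point is filled at ZT4.

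In 24 fits that each left out 1 library, the ZT12 calls of Abcb1b and Abcc4 were lost in none. The call of Abcb1b at ZT8 was lost in 22, that of Abcc3 at ZT16 in 18 and that of Abcc4 at ZT20 in 9. The other single-time calls were lost in 1 to 4.

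Without KO ZT4 replicate A and KO ZT12 replicate A the calls rose from 11 to 20, with 1 KO library at ZT4 and ZT12. All genes were then called at 21.2% (ZT0), 14.7% (ZT4), 20.8% (ZT8), 22.4% (ZT12), 28.1% (ZT16) and 9.66% (ZT20). Abcb1b passed at all 6 times, with 2.17 (adjusted p = 0.00315) at ZT4. Abcc3 passed at ZT0, ZT8, ZT12, ZT16 and ZT20, and Slco4c1 at ZT0, ZT4, ZT8 and ZT12 (0.49 to 0.85). Abcc4 kept its 3 calls, Abcc2 kept ZT8, and Slc47a1 gained ZT0 (-0.30, adjusted p = 0.0444).

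A daily rhythm was fitted as a 24 h cosine within each genotype. In WT 1 of 8 transporters had one (limma F test, 13.7% of all genes). Abcg2 swung by 0.30 on the log2 scale from trough to peak (SE 0.08, adjusted p = 0.0306) and a peak at ZT 3.23 (SE 0.978 h). Its 2 WT libraries were at 213.8 and 221.6 TPM at ZT0 and at 172.6 and 173.4 TPM at ZT16. This call was lost after median-of-ratios scaling (0.24, adjusted p = 0.201), with time as a 6-level factor (adjusted p = 0.159) and in 7 of 24 fits that left out 1 library. No transporter was called in WT after that scaling, where none had an unadjusted p under 0.05.

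In KO 1 of 8 was called (3.64% of all genes), and it was Abcc4, which rose from a mean of 8.41 TPM ± 1.73 at ZT4 to 19.4 TPM ± 1.23 at ZT12 (SD, n = 2). From trough to peak it swung by 1.17 on the log2 scale (SE 0.19, adjusted p = 0.00511) with a peak at ZT 14.3 (SE 0.613 h). Without both libraries that stand apart it was 0.98 (adjusted p = 0.0297), and in the 12 KO libraries alone the adjusted p was 0.0688. In WT the same measure for Abcc4 was 0.10 (SE 0.19, adjusted p = 0.929). The test of the difference between genotypes called 0 of 8 (limma, 0.629% of all genes). Abcc4 (unadjusted p = 0.00225, adjusted p = 0.118) and Abcc2 (0.0156 and 0.252) were the 2 with an unadjusted p under 0.05. For Abcc2 the fitted peak was at ZT 7.85 in WT and ZT 23.3 in KO, and neither rhythm passed. With protein-coding transcripts only, an alternative chosen after seeing the data, the Abcc2 rhythm in WT passed (adjusted p = 0.0294, limma).

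The other genes of the transport system were counted with the same fit, in lists also chosen with earlier results of these data known. Over all genes tested 50.9% rose and 10% fell, and 21.5% and 22.6% did after median-of-ratios scaling. The counts below are to be read beside these shares. Of 14 other ABC exporters 11 were tested, and 7 rose and none fell, with 3 and none after median-of-ratios scaling. Their median log2 difference was 0.18, against 0.44 for the 8 transporters (0.025 and 0.29 after scaling). Abcc1, a broad organic anion pump, rose by 0.61 log2 units (SE 0.09, adjusted p = 2.22e-05, limma). Of 21 other organic ion and drug carriers 17 were tested, and 4 rose and 11 fell (2 and 13 after scaling). The smallest p-values were those of Slco3a1 and Slco1a6, which fell (-1.13 and -1.07, adjusted p = 9.08e-07 and 1.21e-06). The uptake carriers Slc22a6 and Slc22a7 were also among those that fell (-0.92 and -1.57), as was Slco1a1 (-4.22), which is also 1 of the male-high genes. Of 7 brush border scaffold genes 5 rose and 2 fell (2 and 2 after scaling). Pdzk1ip1, which binds Pdzk1, had the smallest p-value of the 7 and rose (0.46, adjusted p = 3.91e-07, limma), whereas Pdzk1, a docking protein of apical transporters, fell (-0.19, adjusted p = 0.00323).

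Of 12 regulators of transporter genes 11 were tested, and 5 rose and 4 fell, where 50.9% and 10% of all genes did. After scaling 3 rose and 4 fell, where 21.5% and 22.6% of all genes did, and the list's median log2 difference turned from 0.05 to -0.10. Nr1i2, the pregnane X receptor that induces drug transporters, rose by 0.97 log2 units (SE 0.15, adjusted p = 3.04e-05, limma). Nfe2l2 (NRF2), which acts at antioxidant response elements, rose by 0.44 (SE 0.07, adjusted p = 1.64e-05). The bile acid receptor gene Nr1h4 fell (-0.58, SE 0.13, adjusted p = 7.56e-04). Of 7 clock output factors 1 rose and 4 fell (1 and 5 after scaling), among them Dbp (-1.64, adjusted p = 0.0111) and Nr1d2 (-2.72, adjusted p = 1.66e-06). A rhythm was called for 6 of these 7 in WT and 0 in KO, against 13.7% and 3.64% of all genes. The rhythm difference was called for 3 of the 7, against 0.629% of all genes.

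Markers of tubule segments moved with genotype too. The shares of all genes were 50.9% higher and 10% lower, and 21.5% and 22.6% after median-of-ratios scaling. Of 7 proximal tubule markers 2 rose and 2 fell, and 1 rose and 3 fell after median-of-ratios scaling. Slc5a2 rose (0.45) and so did Slc5a12 (0.42), while Slc27a2 (-0.39) and Kap (-0.81) fell. The other 3, Slc34a1, Lrp2 and Cubn, did not pass (0.07, 0.00 and 0.04 log2 units), but Lrp2 fell after scaling (-0.15, adjusted p = 0.0179, limma). The summed proximal level, most of it Kap, was 33990 to 44350 TPM in WT and 13630 to 39270 TPM in KO. Of 4 markers of its last segment, S3, 3 fell and 1 rose, with sums of 592.9 to 890.3 TPM and 132.5 to 742.5 TPM. These lists are not separate from those above. Kap and the S3 marker Slc7a13 are also male-high genes, and the S3 marker Slc22a7 is also among the carriers. Slc7a13 had a mean of 373.9 TPM in WT and 137.2 TPM in KO, where the S3 sums had means of 814.7 and 386.8 TPM. The markers of principal (4 of 4), intercalated (4 of 4) and distal convoluted tubule cells (3 of 3) and of podocytes (3 of 3) rose, where 50.9% of all genes rose. After scaling, 2 of 3 distal convoluted tubule markers rose, Pvalb no longer passing (adjusted p = 0.248, limma), and the other counts were the same. The sums were 183.8 to 307.2 TPM in WT and 245.8 to 540.8 TPM in KO for principal cells, 44.2 to 61.9 and 58.9 to 95.7 TPM for intercalated cells, 169.4 to 233.9 and 176.2 to 320.4 TPM for distal convoluted tubule and 50.1 to 70.9 and 68.3 to 99.4 TPM for podocytes. None of these markers had a mean of 0, and their part in the transporter differences was not tested. Other lists did not all rise. Of 3 thick ascending limb markers 2 rose and 1 fell, also after scaling. Their sums were 1147 to 1745 TPM in WT and 1192 to 1445 TPM in KO. Of 3 immune cell markers tested 2 fell, and 3 after scaling. Of 5 endothelial markers 2 rose, and 1 rose and 2 fell after scaling. None of 4 fibroblast and mural cell markers passed. Of 3 red blood cell and 2 urothelial markers tested, 2 and 2 rose, and 0 and 1 after scaling.

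The genes most like each transporter were named as the 3 with the highest Pearson r of log2(TPM + 0.1) over the 24 libraries, which share genotype and time, so r is a description only. Abcb1b was followed by Adk (0.975), Bhmt (0.971) and Hpd (0.970), which encode adenosine kinase, a betaine methyltransferase and a tyrosine-degrading enzyme. Abcc3 was followed by the carbonyl reductases Cbr1 (0.949) and Cbr3 (0.943) and by Fry (0.938). Abcc4 was followed by Fbp2 (0.909), Rab6b (0.907) and Ddb1 (0.903), and Slco4c1 by Gm6614 (0.906), Cyp2c23 (0.862) and Pigr (0.854). Slc47a1 was most like Vil1 (0.899), which encodes the brush border protein villin, Ugt1a7c (0.893) and Tmem120a (0.890). Abcc2 was closest to Mtmr12 (0.822), Anxa13 (0.816) and Lrg1 (0.815), and Abcg2 to Ccdc181 (0.821), Slc1a1 (0.815) and Gmpr (0.805). Abcb1a had the lowest leading value, 0.764 with Gm12489, followed by Fam171a2 (0.701) and Bicdl1 (0.696).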

How the data were processed

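Polyadenylated RNA from 24 kidney libraries was used, with groups, times and replicate letters taken from the labels. The authors deposited TPM per transcript, made with kallisto 0.42.4 on mm10/GRCm38 per the submitters' processing notes. The transcript set and read handling are not given in the sources used here. TPM columns sum to 999999 to 1000001, so sequencing depth is unknown and no counting interval was computed. Of 88198 transcripts, 86119 matched GENCODE M21 and were summed per gene; the other 2079 held 1.35% to 2.24% of TPM. The 12874 genes averaging 1 TPM or more were tested on log2(TPM + 0.1) with limma 3.58.1 (R 4.3.3, eBayes with trend and robust), Benjamini-Hochberg adjusted over all of them, threshold 0.05; the code was tested on simulated data. All 24 libraries entered each fit. Members and gene lists were chosen with earlier results of these data known. The text names the 8 transporters and some, not all, of their 25 transcripts with a mean of 0.5 TPM or more (Abcb1a-202 was added after its values were seen). It also names 3 most similar genes each, up to 4 genes per list by smallest adjusted p (Slc22a6, Slc22a7, Pdzk1 and Dbp were added after their values were seen), Arntl and cell type markers. Alternatives changed the pseudocount, filter, scaling, moderation, model of time, pairing and libraries. Xist is not analysed here.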

Additional observations from a re-analysis of the deposited data

How the results depend on the processing

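None of the 6 genotype calls (Abcb1b, Abcc3, Abcc4 and Slco4c1 higher, Abcc2 and Slc47a1 lower) was lost in any alternative in which the gene was tested, nor in any of 24 fits that each left out 1 library. Where 1 library of a group was left, it was assumed to vary like the other groups. Abcg2 changed sign after median-of-ratios scaling (-0.068). With a minimum mean of 5 TPM, which removes Abcb1a, Abcb1b and Abcc3, 2 transporters rose in place of 4, and the calls at single times came to 4 in place of 11. Those calls came to 20 without both libraries that stand apart, an alternative chosen after seeing the data, and to 7 to 15 in the fits without 1 library. Abcg2 passed as higher without WT ZT0 replicate B (adjusted p = 0.0399) or KO ZT0 replicate A (0.0036), and its KO rhythm passed without the latter (0.0375). Its WT rhythm was lost without WT ZT0 A or B, ZT4 B, ZT8 A, ZT12 B or ZT16 A or B (limma adjusted p up to 0.0776). The cause was not tested. Rhythms in WT were called for 0 transporters after median-of-ratios scaling and with time as a 6-level factor (limma, 0 and 1 at an unadjusted p under 0.05), for 2 in the 12 WT libraries alone (Abcb1a gained), for 2 with protein-coding transcripts only (Abcc2 gained; also chosen after seeing the data; Abcb1a is then not tested), and for 0 to 1 without 1 library. Rhythms in KO were called for 0 in the 12 KO libraries alone (1 at an unadjusted p under 0.05) and for 1 to 2 without 1 library.

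Over all genes, median-of-ratios scaling gave 2761 higher and 2913 lower in place of 6555 and 1289. Rhythms in WT numbered 2843 in WT alone and 576 with the 6-level factor (1761 as reported). Rhythms in KO numbered 295 with no filter, 12 in KO alone, 28 with the 6-level factor and 272 to 626 without 1 library (468 as reported). Differences in rhythm numbered 43 with no filter, 23 with the 6-level factor and 37 to 112 without 1 library (81 as reported).

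The replicate letters were not treated as pairs. Over 66 pairs of groups the correlation of same-letter deviations was -0.323 to 0.338 (median 0.0223), and 21 were over 0.1. Whether some libraries of the same letter share a source was not tested. With the letter as a replicate block, the transporter counts were 4 higher and 2 lower, and the call of Abcc3 at ZT16 was lost (log2 difference 2.48, adjusted p = 0.0517). Over the settings other than leaving out 1 library, the call of Abcc3 at ZT16 was lost in 5 of 9 (adjusted p up to 0.0942: pseudocount 1, no filter, median-of-ratios scaling, replicate block and protein-coding transcripts only). That of Abcb1b at ZT8 was lost in 4 of 10 (up to 0.0753: no filter, median-of-ratios scaling, rescaling without mitochondrial genes and the sum with Abcb1a). That of Abcb1b at ZT0 was lost in the sum with Abcb1a (0.0522) and that of Abcc4 at ZT20 with no filter (0.0709). Depth is unknown, so it cannot be said how far read number limits the low transcripts Abcb1a, Abcb1b and Abcc3.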
